A study of Saccharomyces cerevisiae with 16 samples.

Results

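Yeast cells whose frataxin gene had been shut off were compared by messenger RNA sequencing between strains with wild-type (WT) histone H3 and strains with the H3 mutation H113N. The comparison rests on 8 of the 16 libraries of the series, chosen by their titles: 4 of the WT_YFH1-off group (genotype p(GAL1)-YFH1) and 4 of the H113N_YFH1-off group (genotype H3H113N p(GAL1)-YFH1), each numbered 2 to 5. The other 8 libraries, 4 of H3 WT and 4 of H3 H113N with YFH1 on, serve as the second comparison of H113N with WT and share no library with the first. In the WT_YFH1-off and H113N_YFH1-off groups the GAL1 promoter drives YFH1, so that turning the gene off and building the strain cannot be told apart. Per the labels' protocols, Saccharomyces cerevisiae cells went from YPG into SC medium at an OD600 of 1, at 30 °C, were diluted every 12 h for 36 h and then grown 8 h more, 44 h in all. That protocol is worded for the shutoff strains and attached to all samples. The labels do not say whether libraries of a group came from separate cultures or clones, so the p-values measure the spread between these libraries, which may be technical. Unless YFH1 is said to be on, WT and H113N below mean the groups with YFH1 off.

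Frataxin, the product of YFH1, sits in mitochondria and helps to build iron-sulfur clusters, the cofactors of aconitase, of several respiratory complexes and of enzymes of leucine, lysine, glutamate, sulfur and biotin metabolism. Yeast that lack it are known to express the iron regulon, a set of uptake genes activated by Aft1 and Aft2 that reads low cluster synthesis as iron shortage, and to lose respiration and heme. The histidine changed in H113N lies in histone H3 and, per the series title, belongs to a cupric reductase activity. The design asks how the H3 mutation alters the transcript state of cells without YFH1. In bulk RNA, fewer cells of a type and less RNA per cell cannot be told apart.

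Total counts ran from 6694390 to 9964362 in WT and from 8512726 to 10663540 in H113N, and 3 counts, the floor used here, equalled 0.279 to 0.487 CPM, the unit of level used below (counts scaled to library size). No 2 replicates were alike within sampling noise: over the 12 pairs, chi-square divided by its degrees of freedom ran from 2.905 to 9.618. In a principal component analysis of the 8 libraries, the 4 WT and the 4 H113N libraries lay on opposite sides of the first axis, which carried 86.6% of the variance. Between 461 and 526 genes had no read in a WT library, against 289 to 321 in an H113N library. Among the libraries with YFH1 on, which enter the fit and share its estimate of spread, WT replicate 2 stood apart: 165 of 5876 genes differed by over 2-fold from the median of the other 3 WT libraries, against 0 to 33 genes in any of the other 15 libraries. Without that library, an alternative chosen after seeing the data, 3471 genes were called with YFH1 off in place of 3078, and 3075 of the 3078 were among them; named genes whose call it decides are given with both values.

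YFH1 itself was low in both groups and somewhat less low in H113N. It stood at 5.86, 7.14, 8.92 and 6.71 CPM in WT replicates 2 to 5 and at 9.31, 11.2, 9.03 and 12.7 CPM in H113N. Every H113N library lay above every WT library, and the means were 7.16 ± 1.29 and 10.6 ± 1.74 CPM (SD, n = 4; two-sided exact permutation test, p = 0.0286, the smallest p this design allows). With YFH1 on, WT held 63.5 ± 3.31 CPM and H113N 51.8 ± 5.06 CPM. The part of this remaining YFH1 difference in the results below was not tested. The H3 genes HHT1 and HHT2, which encode the same protein and share sequence, summed to 2013 ± 72.2 CPM in WT and 1317 ± 59.3 CPM in H113N (n = 4, same exact test, p = 0.0286). HHT2 carried most of the difference (log2 fold change -0.85 ± 0.0579 SE, adjusted p = 3.90e-09), whereas HHT1, at 806 ± 41.03 and 647 ± 31.7 CPM, did not pass the test (adjusted p = 0.0664), but passed without WT replicate 2 of the YFH1-on group (adjusted p = 0.00133), without replicate 2 in every group (adjusted p = 0.00976) and with DESeq2 (adjusted p = 0.0475).

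H113N changed the transcripts of cells without YFH1 broadly. Of 5876 genes tested, 3078 (52.4%) passed an adjusted p of 0.05 in edgeR's quasi-likelihood test, 1599 higher in H113N (27.2%) and 1479 lower (25.2%). These shares are the background for every count of list genes given below with YFH1 off. Large changes were mostly rises: 487 genes rose at least 2-fold (8.29%) and 103 fell at least 2-fold (1.75%). Among genes with 10 counts in every library, 247 rose and 92 fell at least 2-fold. The median log2 fold change over all genes was 0.0054. The authors' deposited table gave 3076 genes with an adjusted p under 0.05 for this pair of groups, and 2927 of them were among the 3078. When libraries were scaled by total count alone, the median over all genes became 0.133 and rises made up 73.9% of the calls in place of 51.9%, so that small changes are given relative to the bulk of genes.

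With YFH1 on, H113N differed from WT in 2715 of the 5876 genes (46.2%), 1351 higher (23.0%) and 1364 lower (23.2%). Without WT replicate 2 of the YFH1-on group they numbered 2998 of 5898. Of the 1599 genes higher with YFH1 off, 768 (48.0%) were also higher with YFH1 on and 202 (12.6%) were lower. Of the 1479 genes lower with YFH1 off, the shares were close to these, with 674 (45.6%) also lower and 166 (11.2%) higher. Among changes of at least 2-fold the counts of rises and falls were further apart. Of the 487 genes that rose at least 2-fold with YFH1 off, 365 (74.9%) were also higher in H113N with YFH1 on and 25 were lower. Of the 103 genes that fell at least 2-fold, 32 (31.1%) were also lower with YFH1 on and 40 (38.8%) were higher. Means under 5 CPM over all 16 libraries were held by 226 of the 487 rises and 2 of the 103 falls. At that level the filter can admit a gene through H113N alone, so the shares of rises and falls are not on equal terms. The part of the filter in them was not tested. In 87 of the 103 the H113N effect was lower with YFH1 off than on by the test of that difference, the interaction. The interaction contains the YFH1-off change that picked these genes, so the count of 87 is not separate support. The interaction passed its test in 1808 genes (30.8%), above 0 in 998 (17.0%) and below 0 in 810 (13.8%); without replicate 4 in every group it passed in 1173 genes. Over all 5876 genes the log2 fold changes with YFH1 off and on had a Pearson r of 0.665, a description across genes, which are not independent.

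Rises were also commonest among genes of low level. Of 501 tested genes with a mean under 5 CPM over all 16 libraries, 275 (54.9%) were higher in H113N and 11 (2.2%) lower, with a median log2 fold change of 0.80 with YFH1 off and 0.73 with YFH1 on. The filter asks for about 1.17 CPM in 4 libraries, so a gene near 0 in WT can enter through H113N alone, and the reverse. The part of this in the low-level counts was not tested. Of 2057 genes at 100 CPM or more, 396 (19.3%) were higher and 702 (34.1%) lower. Medians by chromosome ran from -0.06 to 0.05 with YFH1 off. With YFH1 on, chromosomes I, II and V had medians of 0.22, 0.21 and 0.11. The other chromosomes ran from -0.06 to 0.02. The part of these shifts in the YFH1-on and interaction values of single genes and lists was not tested.

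**Figure D1:**
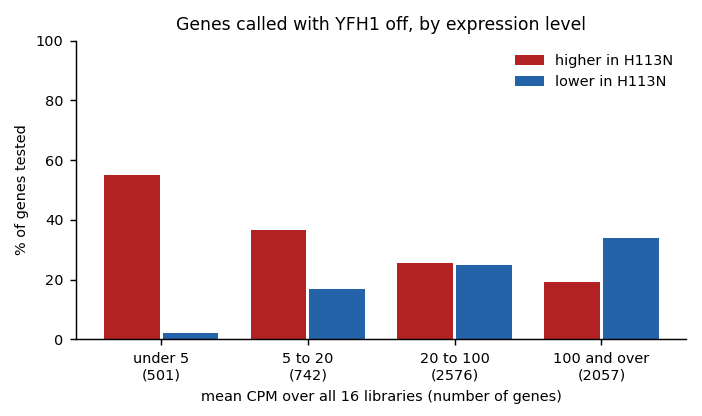
Share of tested genes called higher or lower in H113N than in WT with YFH1 off (y axis, % of genes tested), by mean CPM over all 16 libraries (x axis, number of genes in parentheses). The share called higher drops from 54.9% under 5 CPM to 19.3% at 100 CPM or more, while the share called lower climbs from 2.2% to 34.1%.

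The iron regulon, which frataxin-depleted yeast are known to express, was lower in H113N. Of its 27 genes, 20 fell, 1 rose and 6 did not pass, with a median log2 fold change of -0.79 against 0.0054 for all genes. Without WT replicate 2 of the YFH1-on group, 23 fell and 1 rose. FIT1, a cell wall mannoprotein that retains siderophore-bound iron, stood at 3773, 4190.1, 4367 and 4410.2 CPM in the 4 WT libraries and at 441, 531, 457 and 511 CPM in the 4 H113N libraries. The groups were far apart, 8.63-fold lower in H113N (log2 fold change -3.11 ± 0.115 SE, adjusted p = 2.25e-12), yet H113N stayed above the 19.05 ± 2.88 CPM of H113N with YFH1 on. The other mannoproteins fell less, FIT2 from 6909 ± 409.9 to 3054 ± 198 CPM and FIT3 from 23796 ± 1861 to 7264 ± 331 CPM.

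The promoter of FIT1 is shown because it holds the core of the Aft1 and Aft2 binding site. The stretch is the 150 bases that begin 250 bases before the start codon (chrIV:1505001-1505150, minus strand, genome build sacCer3, read from the RefSeq R64 assembly), 5′ to 3′ along the gene, and capitals mark the match to GCACCC, here on the opposite strand as GGGTGC, 182 bases before the start codon.
FIT1: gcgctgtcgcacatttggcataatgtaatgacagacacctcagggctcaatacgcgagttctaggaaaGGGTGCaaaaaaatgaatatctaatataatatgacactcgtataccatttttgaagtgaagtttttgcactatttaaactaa
In windows from 250 bases before to 50 bases after the start codon, searched on both strands, GCACCC was found in 16 of the 27 iron regulon genes (59.3%) and in 243 of the 5628 tested genes with a window (4.32%). Such a match is a description of letters and not of binding.

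Among siderophore transporters, ARN1 stood at 3120.3, 2908, 3092 and 3227 CPM in WT and 805, 784, 876 and 922 CPM in H113N, 3.65-fold lower with no overlap (adjusted p = 4.27e-06). ARN2 fell from 5902 ± 239.6 to 1818 ± 9.37 CPM and ENB1 from 1159 ± 87.8 to 475 ± 26.3 CPM, while SIT1, at 2288 ± 81.1 and 1564 ± 51.2 CPM, did not pass (adjusted p = 0.0615) except without WT replicate 2 of the YFH1-on group (adjusted p = 2.49e-06). All 4 genes of the oxidase and permease systems fell. FTR1, the permease of the plasma membrane, went from 4904 ± 326 to 2006 ± 112 CPM, FET3, its multicopper oxidase partner, from 8352 ± 334 to 5766 ± 169 CPM, and their vacuolar counterparts FTH1 and FET5 had log2 fold changes of -1.23 and -0.79. MRS4, which carries iron into mitochondria, fell from 147 ± 14.05 to 51.4 ± 2.78 CPM, and CCC2 and ATX1, which deliver copper to Fet3, had log2 fold changes of -1.01 and -0.44.

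LSO1, a small gene known to respond to iron shortage, had the steepest fall of the regulon. It stood at 287, 309, 381 and 388 CPM in WT and 27.3, 29.8, 28.5 and 38.4 CPM in H113N, 11.02-fold lower (adjusted p = 1.53e-10). The genes for recycling and sparing iron were counted with uptake: TIS11, an mRNA-decay factor, HMX1, heme oxygenase, and VHT1, the biotin transporter, had log2 fold changes of -0.56, -0.18 and 0.1 and none passed; without WT replicate 2 of the YFH1-on group TIS11 passed (adjusted p = 2.97e-06). The exception in direction was FRE4, a siderophore reductase, which rose from 4.48 ± 0.86 to 31.1 ± 2.54 CPM (log2 fold change 2.82 ± 0.14 SE, adjusted p = 9.49e-11).

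With YFH1 on, the same list had 21 genes higher in H113N (23.0% of all genes were), 1 lower (23.2% of all genes) and a median of 0.81. The interaction was below 0 in 25 of the 27 genes, where 13.8% of all genes were, and above 0 in FRE4. Of the regulators, AFT1 fell from 326 ± 5.23 to 196 ± 4.72 CPM and AFT2 from 64.6 ± 2.80 to 53.4 ± 2.06 CPM. CCC1, the vacuolar iron importer that Yap5 activates when iron is plentiful, rose from 29.1 ± 1.06 to 49.7 ± 1.96 CPM, and YAP5 fell from 58.6 ± 4.20 to 40.4 ± 3.43 CPM.

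**Figure D2:**
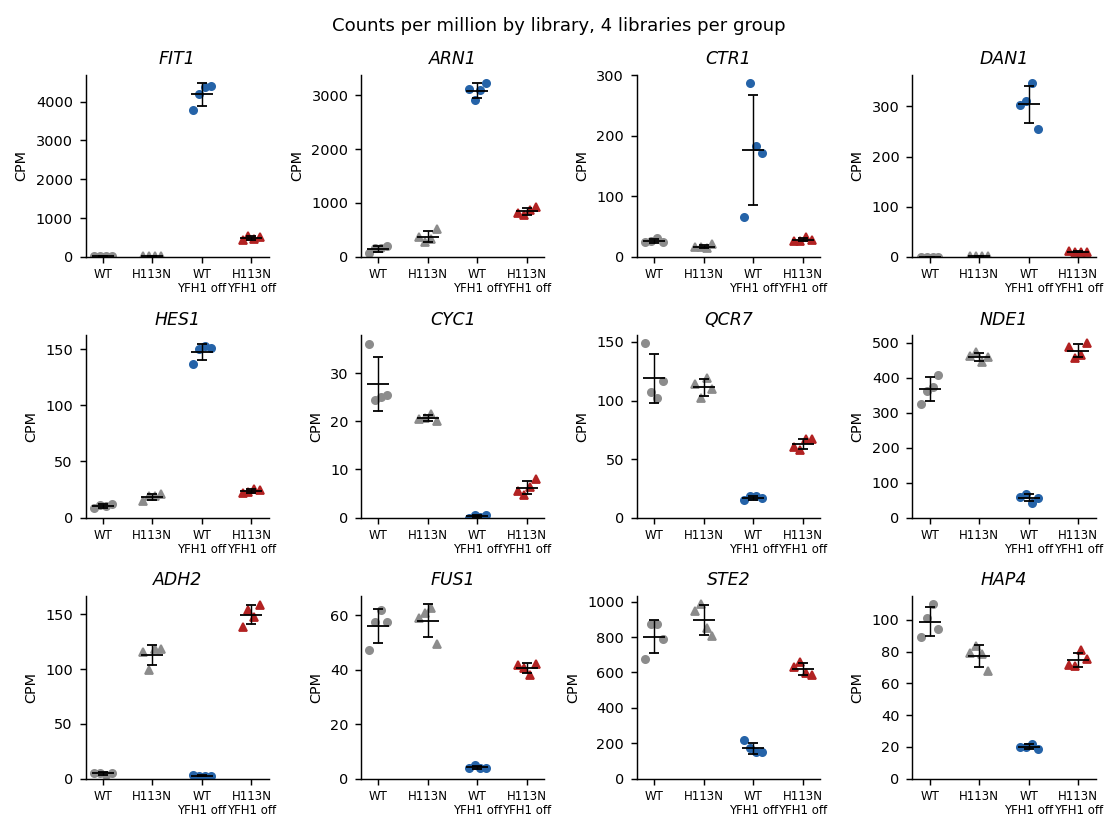
CPM of 12 genes (y axis, linear from 0) in each of the 4 libraries of the 4 groups (x axis). Points are libraries, horizontal bars are means and error bars are SD. In FIT1, ARN1, CTR1, DAN1 and HES1 every H113N library with YFH1 off lies below every WT library with YFH1 off, and in the other 7 genes every one lies above. The mean of H113N with YFH1 off lies between that of WT with YFH1 off and both means with YFH1 on in 10 of the 12 genes, NDE1 and ADH2 being the exceptions. The 12 genes were picked for display with results known, and no such count was made over all genes, so this one describes only the genes shown.

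The machinery that assembles iron-sulfur clusters did not move as a block. Of 24 genes, YFH1 included, 7 were higher (11 when scaled by total count alone), 5 lower and 12 not called, with a median of 0.02. Of all genes, 27.2% were higher and 25.2% lower. ISU2, a scaffold protein, stood at 204, 194, 226 and 236 CPM in WT and 65.2, 67.7, 70.9 and 83.5 CPM in H113N and fell 2.99-fold (adjusted p = 7.70e-10). ISU1, its paralogue, fell from 187 ± 11.6 to 129.7 ± 6.94 CPM and NFS1, the cysteine desulfurase, from 232 ± 5.02 to 179 ± 6.72 CPM. NFU1, a late-acting carrier, rose from 23.1 ± 1.91 to 51.1 ± 5.73 CPM (adjusted p = 3.20e-08), as did DRE2 of the cytosolic pathway, from 42.6 ± 1.60 to 67.02 ± 1.18 CPM.

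Copper uptake and handling was lower as well. Of 11 copper genes tested, 6 fell and 1 rose (25.2% and 27.2% of all genes), with a median of -0.65. CUP1-1 and CUP1-2, the metallothionein copies, were not tested because they did not pass the filter, which uses all 16 libraries. Both had 0 counts in all 8 libraries with YFH1 off. The fit with no filter can add only these copies to the list, so its median of -0.43 does not rest on more measured genes. How reads shared by such copies were counted is not stated. CTR1, the high-affinity copper transporter, stood at 65.3, 287, 182 and 172 CPM in WT and 26.9, 25.6, 32.2 and 28.1 CPM in H113N. WT replicate 2 was much lower than the other 3 WT libraries, and still above all 4 H113N libraries (log2 fold change -2.64 ± 0.293 SE, adjusted p = 1.27e-06). No overlap was a condition for naming CTR1 among the largest falls. CTR2, the vacuolar transporter, fell from 195 ± 6.46 to 68.1 ± 3.55 CPM, SOD1, the copper-zinc superoxide dismutase, from 983 ± 88.3 to 628 ± 41.4 CPM, its copper chaperone gene CCS1 from 270.5 ± 15.1 to 167 ± 5.44 CPM, and CUP2, the activator of metallothionein genes, from 47.3 ± 2.41 to 28.4 ± 1.09 CPM. MAC1, the activator of copper uptake genes, stood at 37.3 ± 3.41 and 36.5 ± 0.652 CPM (adjusted p = 0.741). COX17, which brings copper to cytochrome c oxidase, was the member that rose, from 12.6 ± 1.51 to 17.9 ± 1.86 CPM.

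Respiratory genes moved the opposite way. Of the 22 listed nuclear genes for complexes II, III and IV and cytochrome c, 21 were higher in H113N and none lower. The list median was 1.31, and the groups did not overlap in those 21 (27.6% of all genes were higher without overlap). QCR7, a subunit of the cytochrome bc1 complex, stood at 14.7, 18.3, 18.4 and 17.2 CPM in WT and 60.7, 57.9, 66.8 and 66.8 CPM in H113N, a 3.67-fold rise (log2 fold change 1.87 ± 0.116 SE, adjusted p = 1.21e-09). With YFH1 on, WT held 119 ± 20.97 CPM of it and H113N 111 ± 7.19 CPM.

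The QCR7 promoter is shown for the CCAAT box, the letters bound by the Hap2/3/4/5 activator of respiratory genes (chrIV:1496649-1496798, minus strand, same build and window; capitals mark CCAAT, 181 bases before the start codon).
QCR7: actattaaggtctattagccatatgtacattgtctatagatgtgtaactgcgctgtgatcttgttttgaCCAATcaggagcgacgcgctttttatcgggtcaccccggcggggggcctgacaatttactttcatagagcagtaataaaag
CCAAT, on either strand, was found in the windows of 18 of the 22 respiratory chain genes (81.8%) and 14 of 15 ATP synthase genes (93.3%), against 43.7% of all windows.

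In the bc1 complex, CYT1, cytochrome c1, rose from 6.37 ± 1.77 to 34.5 ± 2.22 CPM and RIP1, the iron-sulfur protein, from 5.24 ± 0.509 to 21.5 ± 2.73 CPM, whereas QCR6 stood at 114 ± 6.23 and 118 ± 12.8 CPM and did not pass (adjusted p = 0.81). All 8 nuclear subunit genes of cytochrome c oxidase in the respiratory list rose, from a log2 fold change of 0.55 for COX9 to 1.67 for COX6. COX5B, which was listed with the hypoxic isoforms, fell. All 4 genes of succinate dehydrogenase rose, among them SDH2, its iron-sulfur subunit, from 6.58 ± 1.03 to 14.5 ± 1.02 CPM. CYC1, cytochrome c, was close to the floor in WT, at 0, 0.487, 0.229 and 0.649 CPM, and stood at 5.61, 4.77, 6.43 and 7.94 CPM in H113N, which is still below the 20.7 ± 0.622 CPM of H113N with YFH1 on.

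With YFH1 on, 1 gene of the respiratory list was higher in H113N and 5 were lower (23.0% and 23.2% of all genes), with a median of -0.13, and the interaction was above 0 in 20 of 22 (17.0% of all genes). The dehydrogenases that feed the chain followed: 6 of 8 rose and CIR1, an electron-transfer flavoprotein subunit, fell (log2 fold change -0.36). NDE1, the external NADH dehydrogenase, stood at 60.02, 67.5, 42.9 and 56.4 CPM in WT and 488, 458, 466 and 498 CPM in H113N, 8.42-fold higher (adjusted p = 8.93e-13). CYB2, L-lactate dehydrogenase, rose from 1.84 ± 0.416 to 16.8 ± 0.631 CPM, and CIR2, the flavoprotein's ubiquinone oxidoreductase, from 9.42 ± 0.591 to 46.6 ± 1.25 CPM.

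Of 15 ATP synthase genes 11 rose, with a median of 0.41, and 8 of them were also higher with YFH1 on (23.0% of all genes). ATP7 went from 90.5 ± 6.02 to 148 ± 7.30 CPM. In the TCA cycle 6 of 11 genes rose (9 without WT replicate 2 of the YFH1-on group), with a median of 0.34, led by KGD2, a subunit of 2-oxoglutarate dehydrogenase, from 71.3 ± 1.99 to 124 ± 5.61 CPM. ACO1, aconitase, a cluster enzyme, rose from 212 ± 11.9 to 320.4 ± 16.5 CPM. Of 8 genes of the mitochondrial genome, whose RNA is poorly caught by poly(A) selection, COX1, at 3.53 ± 1.65 and 3.08 ± 1.12 CPM, and OLI1, at 1.21 ± 0.588 and 0.931 ± 0.651 CPM, were tested, and neither passed.

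Of 12 regulators of heme and oxygen genes, 3 rose and 4 fell, where 27.2% of all genes rose and 25.2% fell. HAP4, the activating subunit of the CCAAT-binding complex, stood at 20.01, 19.97, 22.1 and 18.5 CPM in WT and 71.4, 71.01, 81.1 and 75.2 CPM in H113N, a 3.71-fold rise without overlap (adjusted p = 2.93e-11). HAP2, HAP3 and HAP5, its DNA-binding partners, did not pass, with log2 fold changes of -0.12, -0.12 and -0.21. HAP1, the heme-responsive activator, fell from 1156 ± 50.5 to 429.8 ± 13.1 CPM (adjusted p = 5.57e-12), UPC2, the sterol sensor that activates sterol and anaerobic genes, from 271 ± 11.2 to 82.1 ± 4.36 CPM, ROX1, the hypoxic repressor, from 220.3 ± 16.8 to 110.2 ± 6.76 CPM, and MGA2, the activator of OLE1, from 336 ± 22.03 to 174 ± 9.29 CPM. In heme synthesis, 5 of 8 genes rose and 3 fell. HEM15, ferrochelatase, which inserts iron into heme, rose from 19.9 ± 1.87 to 45.9 ± 2.93 CPM, with 139 ± 14.8 and 68.9 ± 4.15 CPM in WT and H113N with YFH1 on, and HEM1, the first enzyme, from 140.2 ± 4.74 to 206 ± 10.3 CPM.

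Genes known for anaerobic growth and sterol shortage held several of the steepest falls. All 6 listed cell wall genes of the DAN and TIR family were lower in H113N, with a median of -2.08. None of the listed genes overlapped between groups (26.0% of all genes were lower without overlap). DAN1 stood at 302, 312, 346 and 255 CPM in WT and 11.4, 8.61, 9.13 and 10.3 CPM in H113N, 30.8-fold lower with the groups wide apart (log2 fold change -4.95 ± 0.118 SE, adjusted p = 2.22e-14). TIR3 fell from 157 ± 21.01 to 30.9 ± 3.17 CPM, TIR2 from 316 ± 49.3 to 89.5 ± 7.79 CPM and DAN4 from 95.1 ± 9.48 to 30.03 ± 2.04 CPM. With YFH1 on, 5 of the 6 were higher in H113N (23.0% of all genes) and the interaction was below 0 in all 6 (13.8% of all genes). The seripauperin genes were counted apart, and with YFH1 off 6 of the 11 tested were higher and 1 lower.

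The DAN1 promoter is shown for the sterol response element that Upc2 and Ecm22 bind (chrX:709808-709957, minus strand, same build and window; capitals mark TCGTATA, here as TATACGA on the opposite strand, 203 bases before the start codon).
DAN1: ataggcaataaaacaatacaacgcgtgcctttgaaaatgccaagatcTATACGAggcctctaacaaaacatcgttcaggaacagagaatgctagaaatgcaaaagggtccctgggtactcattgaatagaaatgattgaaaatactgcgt
TCGTATA, on either strand, was found in 2 of 6 windows of the DAN and TIR genes (33.3%), in 3 of 23 of ergosterol synthesis (13.0%), in 3 of the 10 genes with the largest falls (30.0%) and in 4.21% of all windows.

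Beyond DAN1, LSO1, FIT1 and CTR1, the 10 largest falls among genes past the threshold were YMR317W, SET4, PBI1, YPR145C-A, HES1 and AUS1. YMR317W, an uncharacterised gene, stood at 1842, 1614, 1423 and 1303 CPM in WT and 36.6, 37.5, 28.96 and 38.3 CPM in H113N, 43.7-fold lower (adjusted p = 2.30e-14). HES1, an oxysterol-binding protein homologue, stood at 137, 150.01, 152 and 151 CPM in WT and at 22.00, 22.5, 25.4 and 24.5 CPM in H113N. AUS1, a transporter that takes up sterol in anaerobic cells, fell from 473 ± 50.3 to 84.2 ± 3.26 CPM, and SET4, a SET-domain protein, from 86.9 ± 10.3 to 6.05 ± 0.686 CPM. PBI1 fell from 515 ± 60.5 to 42.3 ± 3.86 CPM and YPR145C-A from 35.2 ± 4.68 to 3.19 ± 0.791 CPM. In all 10 the interaction was below 0 (13.8% of all genes). The interaction contains the YFH1-off change by which these genes were picked, so this is not separate support.

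Of 23 genes of ergosterol synthesis, 13 fell and 6 rose, with a median of -0.36. ERG6, sterol C-24 methyltransferase, stood at 1247, 1386, 1342 and 1412 CPM in WT and 579.6, 599, 602 and 600.02 CPM in H113N, 2.26-fold lower (adjusted p = 8.65e-12), and ERG4, the last enzyme, fell from 1151 ± 67.3 to 472 ± 27.7 CPM. All 10 listed genes that act after the heme enzyme ERG11 were among those lower, together with ERG9, ERG12 and HMG2. The 6 that rose act at ERG11 or before it (log2 fold change 0.21), namely ERG10 (0.15), ERG13 (0.27), MVD1 (0.39), IDI1 (0.84) and ERG7 (0.68). IDI1, isopentenyl diphosphate isomerase, went from 90.7 ± 4.64 to 162 ± 0.858 CPM. Among hypoxic isoforms 5 of 9 fell and 3 rose (25.2% and 27.2% of all genes), with a median of -0.42. The rises reached a log2 fold change of 1.42. The genes that fell were ANB1, HMG2, OLE1, COX5B and TIR1, which is also counted with the DAN and TIR genes. ANB1, the hypoxic form of translation factor eIF5A, fell from 69.4 ± 9.69 to 39.4 ± 5.63 CPM.

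Biosynthetic pathways that use cluster enzymes are given beside the background of 27.2% of all genes higher and 25.2% lower. In leucine and branched-chain synthesis 9 of 12 genes rose and 3 fell, with a median of 0.88. LEU1, isopropylmalate isomerase, a cluster enzyme, stood at 26.01, 25.2, 21.5 and 21.97 CPM in WT and 112, 128, 123 and 109.9 CPM in H113N, 5.0-fold higher without overlap (adjusted p = 2.20e-09). ILV3, the cluster-dependent dihydroxyacid dehydratase, rose from 228 ± 11.7 to 439 ± 25.5 CPM. The branched-chain aminotransferases moved apart: BAT1, the mitochondrial form, rose from 171 ± 14.1 to 446 ± 11.3 CPM and BAT2, the cytosolic form, fell from 425 ± 20.7 to 152 ± 9.25 CPM. ILV5 and ILV6 were the other members lower, with log2 fold changes of -0.29 and -0.21.

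In lysine synthesis 6 of 9 genes rose, LYS14, the pathway activator, fell (log2 fold change -0.3), and LYS4, homoaconitase, a cluster enzyme, went from 60.6 ± 7.44 to 169 ± 22.9 CPM. Of 7 glutamate and glutamine genes 4 rose, 1 fell and 2 did not pass, with a median of 0.50. Among those that did not pass was GLN1 (log2 fold change -0.82, adjusted p = 0.224). Without WT replicate 2 of the YFH1-on group GLN1 passed as a fall (adjusted p = 0.00375), and the list had 4 higher and 2 lower. GLT1, the cluster-containing glutamate synthase, rose from 109 ± 6.24 to 247 ± 21.1 CPM, and PUT1, proline oxidase, from 3.99 ± 1.01 to 28.5 ± 3.17 CPM, while GDH3, a glutamate dehydrogenase, fell from 128 ± 18.8 to 46.99 ± 3.66 CPM. Of 5 biotin genes 4 rose. BIO2, biotin synthase, a cluster enzyme, stood at 8.43, 10.9, 6.75 and 5.74 CPM in WT and 71.5, 67.4, 76.5 and 104 CPM in H113N, 10.03-fold higher (adjusted p = 1.85e-09), and BIO4, an earlier step, went from 1.95 ± 1.04 to 18.9 ± 5.19 CPM.

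In sulfur assimilation 9 of 19 genes rose, 9 did not pass and MET8, of siroheme synthesis, fell (log2 fold change -0.61), with a median of 0.83. SUL1, a sulfate permease, rose from 0.353 ± 0.244 to 6.80 ± 0.414 CPM. Its WT mean lay within the floor of the WT libraries, 0.325 to 0.487 CPM, so the size of its rise is uncertain. MET10, a sulfite reductase subunit, rose from 66.5 ± 0.956 to 123 ± 7.76 CPM. Arginine synthesis differed, with 2 of 10 genes higher and 4 lower, among them ARG3, ornithine carbamoyltransferase, from 53.2 ± 7.30 to 20.8 ± 6.46 CPM. With YFH1 on, 3 branched-chain genes of 12 were higher in H113N and 5 lower, and all 5 biotin genes were higher, where 23.0% of all genes were higher and 23.2% lower. LEU2, LYS2, TRP1, URA3 and MET17, which serve in yeast as markers for strain building, also rose; the labels do not give the strains' markers.

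**Figure D3:**
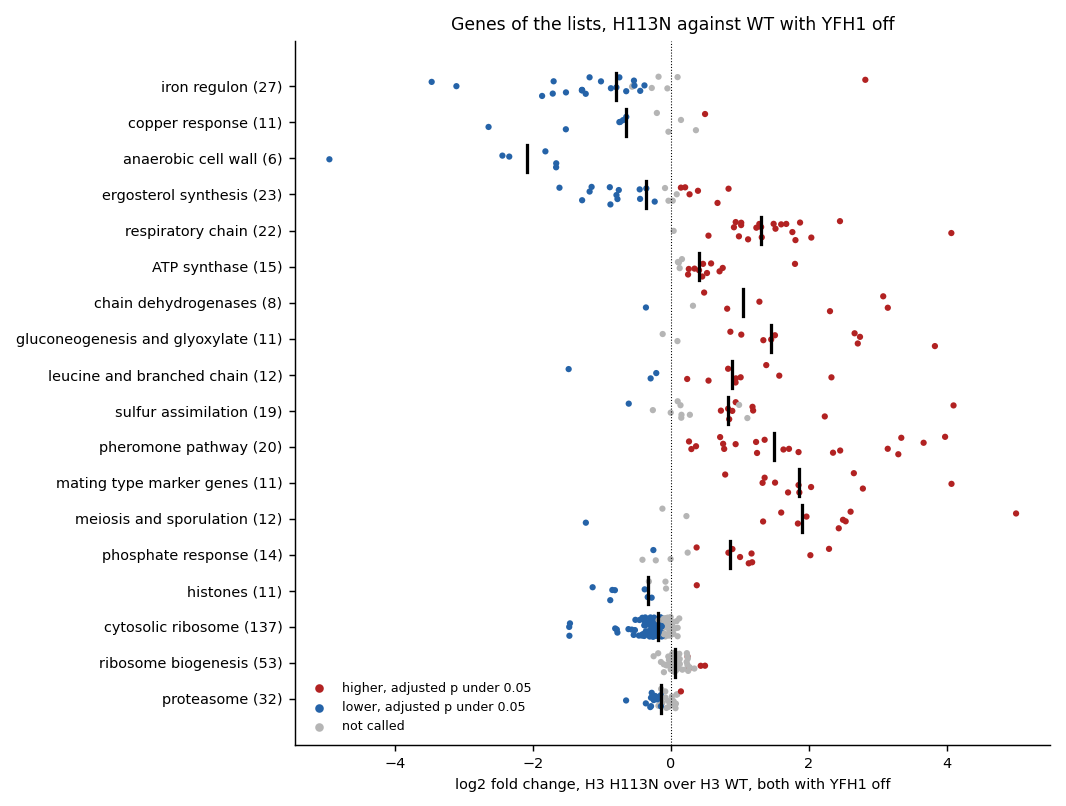
Log2 fold change of H113N over WT with YFH1 off (x axis) for each tested gene of 18 lists (y axis, number of genes tested in parentheses). Red and blue points passed an adjusted p of 0.05, grey points did not, black bars are list medians and the dotted line is the median of all genes, 0.0054; iron, copper, anaerobic and sterol lists lie to the left and respiratory, mating and meiotic lists to the right.

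Mating genes were higher in H113N throughout. All 20 genes of the pheromone pathway rose, with a median of 1.5, and 18 had an interaction above 0 (17.0% of all genes). FUS1, needed for cell fusion, stood at 4.002, 5.03, 3.78 and 3.90 CPM in WT and 41.9, 40.6, 38.3 and 42.05 CPM in H113N, 9.75-fold higher (log2 fold change 3.3 ± 0.121 SE, adjusted p = 2.25e-12). With YFH1 on, WT held 56.1 ± 6.15 CPM of it and H113N 58.1 ± 5.93 CPM, which did not pass (adjusted p = 0.653). AGA1, the anchor of the a-agglutinin, rose from 58.6 ± 4.73 to 321 ± 18.1 CPM and FAR1, which arrests the cell cycle, from 48.8 ± 10.1 to 159.5 ± 9.16 CPM.

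The FUS1 promoter is shown for the pheromone response element, the site of Ste12 (chrIII:71553-71702, plus strand, same build and window; capitals mark TGAAACA, 187 and 160 bases before the start codon).
FUS1: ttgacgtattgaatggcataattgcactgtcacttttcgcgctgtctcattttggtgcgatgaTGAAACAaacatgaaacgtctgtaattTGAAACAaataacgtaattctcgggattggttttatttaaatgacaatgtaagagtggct
TGAAACA, on either strand, was found in the windows of 11 of the 20 pheromone genes (55.0%) and 410 of all 5628 (7.29%).

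Markers of both mating types were higher in H113N, with a-factor genes and the alpha-factor receptor read in both groups. All 6 genes specific to a cells rose in H113N, with a median of 1.86. With YFH1 on, 3 of them were higher in H113N and 2 lower, and the interaction was above 0 in all 6. STE2, the receptor for alpha-factor, stood at 217, 173, 147 and 149 CPM in WT and 633, 657, 598 and 586 CPM in H113N, and BAR1, the protease that degrades alpha-factor, rose from 33.8 ± 4.32 to 212 ± 8.52 CPM (adjusted p = 5.08e-13). The 5 genes specific to alpha cells also rose, with a median of 1.70. With YFH1 on, all 5 were higher in H113N as well, with a median of 2.03, and the interaction was above 0 in 1. STE3, the receptor for a-factor, went from 7.51 ± 1.11 to 19.3 ± 3.93 CPM and MF(ALPHA)1, which encodes alpha-factor, from 0.803 ± 0.497 to 12.7 ± 1.54 CPM. MF(ALPHA)1 was higher in H113N with YFH1 on as well, 32.7 ± 2.63 against 1.12 ± 0.276 CPM. No WT library held more than 3 counts of MF(ALPHA)2, which reached 1.39 ± 0.462 CPM in H113N. Of the silencing genes, SIR4 and SIR1 were lower (log2 fold changes -0.24 and -0.32) and SIR2 higher (0.24); scaled by total count alone, SIR4 and SIR1 no longer passed, and SIR1 lost its call without replicate 3 and SIR2 without replicate 3 or 5.

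Meiotic genes rose too, from very low levels. Of 12 genes, 9 were higher, where 27.2% of all genes and 54.9% of those with a mean under 5 CPM over all 16 libraries were. IME1, the inducer of meiosis, was lower, at 12.8 ± 1.68 and 5.44 ± 0.687 CPM (adjusted p = 1.42e-06). With YFH1 on, 9 of the 12 were also higher in H113N and 1 lower (23.0% and 23.2% of all genes), and 9 genes were called in the same direction in both states. DIT1, an enzyme of the spore wall, rose from 3.67 ± 0.597 to 21.00 ± 1.98 CPM and HOP1, a protein of meiotic chromosomes, from 1.71 ± 0.548 to 6.49 ± 0.818 CPM. No WT library held more than 3 counts of SPS2, which reached 6.65 ± 0.683 CPM in H113N. With 10 counts required in every library, 4 were higher and 1 lower.

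**Figure D4:**
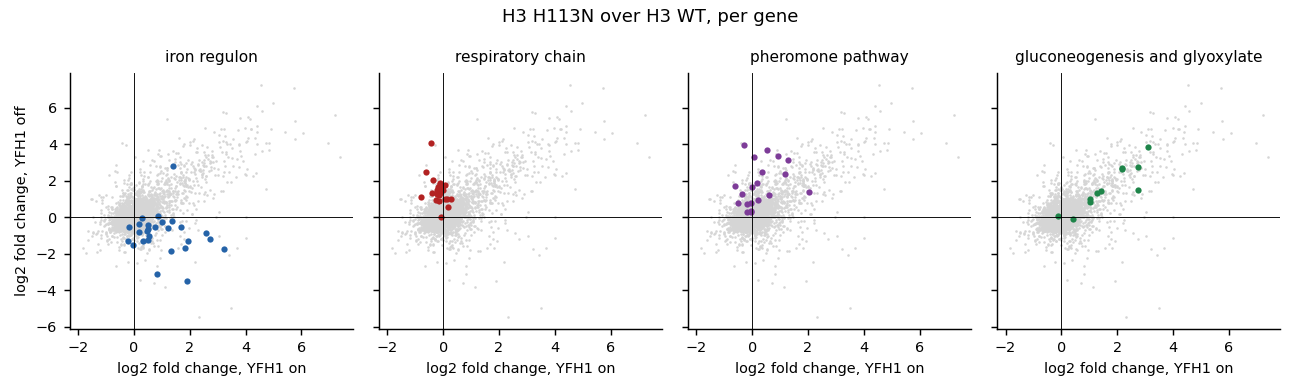
Log2 fold change of H113N over WT for each gene with YFH1 on (x axis) and with YFH1 off (y axis); grey points are all 5876 genes and coloured points the genes of the list named above each panel. Iron regulon genes lie mostly right of 0 and below 0, respiratory genes near 0 on x and above 0 on y, and gluconeogenesis genes above 0 on both axes.

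Genes of gluconeogenesis and the glyoxylate cycle, which glucose is known to repress, were mostly higher in H113N whether YFH1 was on or off. Of these 11 genes, 9 rose in each state (27.2% of all genes with YFH1 off and 23.0% on), with medians of 1.45 with YFH1 off and 1.41 on. MLS1, malate synthase, stood at 2.14, 4.22, 1.83 and 3.03 CPM in WT and 33.1, 37.5, 36.04 and 50.2 CPM in H113N, 13.98-fold higher (adjusted p = 2.05e-09). JEN1, the lactate transporter, rose from 5.60 ± 0.707 to 37.5 ± 3.30 CPM, and the activator gene CAT8, at 11.4 ± 2.44 and 10.6 ± 1.85 CPM, did not pass. ADH2, the alcohol dehydrogenase used to grow on ethanol, stood at 3.43, 2.76, 2.63 and 2.06 CPM in WT and 138, 154, 148 and 159 CPM in H113N, 55.1-fold higher (log2 fold change 5.8 ± 0.134 SE, adjusted p = 2.22e-14). It was also higher with YFH1 on, by a log2 fold change of 4.58, and the interaction was 1.22 (adjusted p = 0.000337).

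Of 14 fermentation genes 5 rose, 3 fell and 6 did not pass, with a median of 0.01, where 27.2% of all genes were higher and 25.2% lower. PDC6 and PDC5, pyruvate decarboxylases, rose from 3.24 ± 0.789 to 51.6 ± 4.78 CPM and from 36.1 ± 3.03 to 177 ± 7.11 CPM, while the alcohol dehydrogenase genes ADH1, ADH3 and ADH5 fell, with log2 fold changes of -0.63, -0.57 and -0.84. Glycolytic genes counted 1 higher (TDH2) and 5 lower of 17, which became 6 and 5 when libraries were scaled by total count alone; HXK2, hexokinase, fell from 1659.9 ± 116 to 1168 ± 66.1 CPM. Of 9 hexose transport genes 3 rose (5 when scaled by total count alone) and 1 fell. HXT6 and HXT7 of this list each share 95.1% of their 50-base words with other sites, so their single counts are uncertain. HXT4, a hexose transporter, rose from 129 ± 21.4 to 432 ± 30.6 CPM and HXT3 fell from 3827 ± 354 to 2322 ± 70.3 CPM. Of 7 galactose genes 4 rose (1 with 10 counts required in every library) and 1 fell. GAL7 and GAL10, galactose enzymes, rose from 1.17 ± 0.608 to 6.98 ± 1.01 CPM and from 1.21 ± 0.535 to 7.18 ± 0.864 CPM, and GAL1, whose promoter drives YFH1 in these strains, fell from 16.4 ± 0.887 to 12.7 ± 0.927 CPM. GAL1 and GAL10 overlap a noncoding gene, and strand use in counting is not stated.

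Of 11 genes known to respond to zinc shortage 4 rose, 1 fell and 6 did not pass, with a median of 0.22, where 27.2% of all genes were higher; scaled by total count alone 7 rose. YOR387C, a paralogue of VEL1, stood at 0.429, 2.76, 0.458 and 1.41 CPM in WT and 92.4, 148, 319.96 and 172 CPM in H113N (adjusted p = 5.83e-07). VEL1 stood at 2.001, 18.3, 6.64 and 8.98 CPM in WT and at 242, 356, 565 and 403 CPM in H113N (adjusted p = 1.30e-07). Both genes varied among libraries. No overlap between groups was a condition for naming them among the largest rises, so it is not separate support. ADH4, a zinc-regulated alcohol dehydrogenase, rose from 69.3 ± 21.9 to 378 ± 36.3 CPM, and ZAP1, the zinc-responsive activator, from 218 ± 54.5 to 318 ± 16.8 CPM. The transporter genes ZRT1 and ZRT3 did not pass, although ZRT1 did without WT replicate 2 of the YFH1-on group (log2 fold change 0.22, adjusted p = 0.0195), and ZRT2 fell (log2 fold change -0.21). With YFH1 on, YOR387C and VEL1 were higher in H113N as well, by log2 fold changes of 4.55 and 4.08.

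The other large rises were PHO3 and genes of Ty retrotransposons. PHO3, an acid phosphatase, stood at 105, 88.2, 77.7 and 75.8 CPM in WT and 1234, 1362, 1259.5 and 1375 CPM in H113N, 15.1-fold higher (adjusted p = 2.30e-14). The Ty genes YGR038C-B, YDR261C-D, YJR027W and YLR227W-B rose from 11.4 ± 8.59 to 216 ± 93.8 CPM, from 2.93 ± 0.241 to 41.3 ± 5.86 CPM, from 3.54 ± 0.899 to 43.3 ± 2.42 CPM and from 8.88 ± 1.38 to 102 ± 12.3 CPM. Between 97.5% and 99.5% of the 50-base words of these 4 genes occur elsewhere in the genome and each overlaps another Ty gene, so the element that gave the reads is uncertain. In the phosphate response 9 of 14 genes rose and VTC2 fell (log2 fold change -0.25); PHO5, a repressible acid phosphatase, went from 20.1 ± 1.46 to 81.9 ± 5.21 CPM and PHO8, the vacuolar alkaline phosphatase, from 58.7 ± 3.65 to 133 ± 4.07 CPM.

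Of 32 oxidative stress genes 12 rose and 14 fell, which became 13 and 11 with scaling by total count alone. Over all genes 27.2% rose and 25.2% fell. PRX1, the mitochondrial peroxiredoxin, stood at 29.3, 28.2, 35.6 and 33.7 CPM in WT and 103, 108, 123 and 132 CPM in H113N (adjusted p = 5.41e-09), and the catalase gene CTT1, the cytochrome c peroxidase gene CCP1 and SOD2, the mitochondrial superoxide dismutase, rose from 5.49 ± 1.04 to 21.8 ± 2.47 CPM, from 11.7 ± 1.63 to 32.9 ± 4.34 CPM and from 70.7 ± 5.79 to 129.6 ± 6.69 CPM. In the thioredoxin and glutathione system 7 of 12 fell, among them TRR1, thioredoxin reductase, from 732 ± 34.4 to 452 ± 19.8 CPM. GPX2, a peroxidase, fell from 78.8 ± 7.42 to 32.2 ± 0.51 CPM. Heat shock genes counted 6 higher and 2 lower of 22 (6 and 6 when only the compared groups were fitted), where 27.2% of all genes were higher and 25.2% lower, and the Hsp70 gene SSA3 rose from 59.03 ± 3.40 to 134 ± 6.22 CPM.

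Ribonucleotide reductase, an iron enzyme that makes deoxynucleotides, and its regulators counted 5 higher and 2 lower of 8 (27.2% and 25.2% of all genes). The small subunit genes RNR2 and RNR4 rose from 142 ± 6.76 to 444 ± 13.3 CPM (adjusted p = 6.03e-13) and from 184 ± 9.91 to 592 ± 18.7 CPM, while RNR1, of the large subunit, stood at 1517 ± 55.5 and 1309.8 ± 89.6 CPM (adjusted p = 0.138, and 0.00608 without WT replicate 2 of the YFH1-on group). RNR3 and HUG1, which are induced by DNA damage, rose from 20.4 ± 1.66 to 55.4 ± 0.897 CPM and from 3.21 ± 0.29 to 27.2 ± 1.16 CPM, and both were higher in H113N with YFH1 on (log2 fold changes 1.22 and 3.92). DIF1 and CRT10 fell, with log2 fold changes of -0.33 and -0.18.

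Of 11 histone genes 7 were lower and HHF1 was higher, with a median of -0.34. HTB2, of H2B, stood at 653, 667, 691 and 662 CPM in WT and 291, 312, 312 and 304 CPM in H113N (adjusted p = 1.37e-08), and HHF2, the H4 gene next to HHT2, fell from 736 ± 26.9 to 419 ± 19.6 CPM. HHF1, the H4 gene next to HHT1, rose from 600.5 ± 20.97 to 779 ± 21.2 CPM. The H3 and H4 pairs share 12.2% and 21.3% of their 50-base words with other sites, so reads between copies may have been split.

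Of 137 cytosolic ribosomal protein genes 97 were lower and none higher, with a median of -0.19, which became 47 lower, 12 higher and -0.06 with scaling by total count alone. RPS14B and RPS22B fell most clearly, from 333 ± 12.9 to 121 ± 4.82 CPM and from 422 ± 17.6 to 152 ± 3.26 CPM. Ribosome biogenesis factors counted 4 higher and none lower of 53 (15 and 2 without WT replicate 2 of the YFH1-on group, 2 higher without replicate 5 and 13 higher when scaled by total count alone). Mitochondrial ribosomal proteins counted 17 higher and 5 lower of 65, near the share of all genes for rises (27.2%); this became 36 and 3 when scaled by total count alone, and 11 higher without replicate 3 or replicate 5. MRPL50 rose from 24.1 ± 2.27 to 47.3 ± 3.45 CPM. Proteasome genes counted 14 lower and 1 higher of 32, which became 3 and 5 with scaling by total count alone; without replicate 3, 9 were lower.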

How the data were processed

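Per the labels' protocols, mRNA libraries (KAPA mRNA Hyper Prep) were read on an Illumina NovaSeq. FastQC, cutadapt, HISAT2, featureCounts, DESeq2 and the build sacCer3 are named in the submitters' processing notes, without roles; annotation, strand and multi-mapping settings are not given in the sources used here. The authors deposited whole-number counts for 6692 genes, used as they are, and a table of normalized counts (a signal: counts divided by 1 size factor per library), used here for gene names and for the adjusted p-values that the authors deposited. No column was left unassigned (0 columns), and no row lacked a gene name.

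Counts were fitted in R 4.3.3 with edgeR 4.0.16 (limma 3.58.1): filterByExpr (about 1.17 CPM in 4 libraries), TMM, 1 mean per group over all 16 libraries, glmQLFit and glmQLFTest, Benjamini-Hochberg within each contrast. SE is the log2 fold change over the square root of F. CPM use TMM-scaled library sizes, and means are given ± SD over 4 libraries. The fit was tested on simulated data. The floor of 3 counts covers counting error only. Alternatives, with DESeq2 1.42.0 among them, are in the closing section.

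Samples were grouped by title. The comparison, the gene lists and the tests were chosen with earlier results of these data known. Named genes are YFH1, HHT1 and HHT2, the 10 largest rises and falls among genes past the threshold with a mean log2 CPM (prior count 2) of at least 3 and no overlap, the 3 members of each list with the smallest adjusted p, any member of a list or role of 12 or fewer, and members called against most of their list. The RefSeq annotation of R64 matched 6008 of 6692 identifiers and 5637 of 5876 tested genes, and 5628 had a promoter window.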

Additional observations from a re-analysis of the deposited data

Results flagged for a closer look

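YFH1, HHT1, HHT2 and the 20 genes with the largest rises and falls were looked at, in 46 groups of 4 libraries. In 4 groups a library stood apart by Dixon's criterion, which chance meets in about 1 of 20 groups. HHT2 in WT replicate 2 was at 1143 CPM, with the others at 1224 to 1232. YGR038C-B in H113N replicate 2 was at 356 CPM, with the others at 154 to 184. YJR027W in H113N replicate 4 was at 39.7 CPM, with the others at 44.2 to 44.7. HES1 in WT replicate 2 was at 137 CPM, with the others at 150.01 to 152.

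The H113N effect differed between YFH1 off and on, by the interaction test, in 19 of these 23 genes and in 1808 genes in all (30.8%). All but YFH1, HHT1 and HHT2 were picked by their YFH1-off change, which is part of the interaction, so the count of 19 is not separate support. It was above 0 (log2) in YFH1 (0.84), ADH2 (1.22), YGR038C-B (2.06), PHO3 (2.16), YDR261C-D (1.56), YJR027W (1.10) and YLR227W-B (1.94). It was below 0 in HHT1 (-0.82), HHT2 (-0.77), YMR317W (-7.77), DAN1 (-8.44), SET4 (-4.96), PBI1 (-4.31), LSO1 (-5.38), YPR145C-A (-3.67), FIT1 (-3.92), HES1 (-3.47), CTR1 (-2.0) and AUS1 (-2.58).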

How the results depend on the processing

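The count of genes called with YFH1 off stayed between 2766 and 3493 under DESeq2 size factors, library size only, DESeq2, no filter, 10 counts in every library, a fit of the compared groups only and the replicate block, and between 2471 and 3206 without 1 replicate in every group. Genes lower by at least 2-fold numbered 83 with library size only, and genes higher by at least 2-fold numbered 247 with 10 counts in every library, against 103 and 487. With YFH1 on, counts ran from 2025 to 2862 without 1 replicate; for the interaction they ran from 1173 (without replicate 4) to 2074 against 1808, fitted on fewer libraries. Without 1 replicate, the YFH1 difference ran from 2.55 to 4.52 CPM and that of HHT1 and HHT2 from -704 to -674 CPM, each with an exact p of 0.1, the smallest 3 against 3 allow.

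The replicate block gave 3089 calls with YFH1 off. Correlations of same-numbered libraries of the 2 groups were 0.228, -0.0262, 0.206 and 0.0855, not all over 0.1, so the numbers were not taken to pair samples, although 3 of 4 WT libraries correlated best with their own number, a hint of pairing in the data.

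With library size only, RTG2 and MKS1 of the retrograde list turned to 0.01 each; COX1 ran from -0.42 to 0.06 without 1 replicate; the cause was not tested. HHT1 passed under DESeq2, in the compared groups only, under the block, without replicate 2 and without WT replicate 2 of the YFH1-on group. Without that library the interaction passed in 2255 genes, 13 sulfur assimilation genes were higher against 9 and 6 zinc response genes against 4. SIR1, SIR2, RTG2 and RRP42 lost their call without 1 of replicates 3 to 5. With 10 counts in every library, galactose genes had a median of 0.11 against 1.16 and 4 meiotic genes were higher against 9, where fewer genes were tested. With genes at the floor in WT set to their bound, the mating marker median was 1.81 against 1.85. Antisense and overlapping genes are uncertain because strand use is not given.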

Other observations

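Of 10 efflux genes 4 rose and 2 fell with YFH1 off, with a median of 0.01, where 27.2% of all genes were higher and 25.2% lower. TPO1, a polyamine exporter, rose from 95.3 ± 4.76 to 231 ± 6.72 CPM (adjusted p = 1.04e-08, edgeR), PDR12, the exporter of weak acids, from 392 ± 41.7 to 662 ± 38.6 CPM and PDR10 from 33.1 ± 3.21 to 62.8 ± 2.97 CPM, while PDR5, the main drug efflux pump, fell from 655 ± 26.9 to 470.5 ± 38.4 CPM. Of 15 trehalose and glycogen genes 5 rose and 1 fell (6 and 4 without WT replicate 2 of the YFH1-on group, 3 and 1 without replicate 4 or 5); GDB1, the glycogen debranching enzyme, went from 72.8 ± 4.40 to 126 ± 4.06 CPM and PGM2, phosphoglucomutase, the member called lower, from 119 ± 21.9 to 73.00 ± 7.12 CPM. In the retrograde list, CIT2, the marker target, stood at 251 ± 23.8 and 133 ± 18.2 CPM and did not pass (adjusted p = 0.157) with WT replicate 2 of the YFH1-on group in the fit, where CIT2 was at 358 CPM against 40.3 to 42.0 CPM in the other 3; without that library it fell (log2 fold change -0.92, adjusted p = 2.60e-07). PDH1 of the same list rose from 6.88 ± 1.46 to 13.4 ± 3.11 CPM; RTG2 had a log2 fold change of -0.12, which turned to 0.01 with library size only and lost its call without replicate 4 or 5.

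The seripauperin genes, a repeated subtelomeric family, were counted apart from the listed DAN and TIR genes. Of 24 members 11 were tested, 6 were higher (1 with 10 counts in every library) and PAU5 was lower, from 41.8 ± 11.7 to 19.3 ± 1.42 CPM, while PAU24 rose from 4.89 ± 0.931 to 14.6 ± 2.60 CPM. Copies share 24.7% (PAU5) and 52.9% (PAU24) of their 50-base words with other sites, so counts of single members are uncertain.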
